A study of Homo sapiens with 8 samples.

Results

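KURAMOCHI is an established human line of high-grade serous ovarian carcinoma, and its response was read on 4 of the 8 arrays of the study, the 4 whose labels name this cell line. RNA of KURAMOCHI cells cultured with simvastatin was hybridised to 2 arrays, and RNA of KURAMOCHI cells cultured with L-778123 to the other 2. The remaining 4 arrays hold the same 2 treatments in OVSAHO, a second serous line, and enter here as a shared estimate of the spread and as a comparison. The arrays were 1-colour Agilent expression arrays, and the study set simvastatin beside L-778123 to ask which of its effects go beyond a loss of protein prenylation. The concentrations and times of the array cultures are not given in the sources used here, and arrays of untreated cells were not part of what was analysed. Each difference below is therefore simvastatin relative to L-778123, and which of the 2 drugs moved a gene cannot be told apart. The labels do not say that the 2 arrays of a group came from separate cultures, so the p-values measure only the spread between these arrays, which may be technical. The 4 KURAMOCHI arrays lay in 1 row of 1 slide, and the position on the slide and the drug cannot be told apart.

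Statins block the mevalonate pathway, which begins from acetyl-CoA. That pathway supplies cholesterol, and it also supplies the farnesyl and geranylgeranyl lipids that anchor small GTPases such as RAS and RHOA to membranes. L-778123 inhibits the transferases that attach these lipids to proteins, and leaves the synthesis of sterols in place. Cells short of sterol activate SREBP2, which switches on the genes of cholesterol synthesis and uptake. RHOA signalling shapes actin filaments, and free actin monomers hold back MRTF, the partner with which the factor SRF drives genes of the contractile cytoskeleton.

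The markers of the labelled cell type were present. Each of 13 markers of serous ovarian carcinoma, among them PAX8, WT1 and MUC16, had a probe well above background on all 4 KURAMOCHI arrays. Of 6 fibroblast markers, COL1A1 and COL3A1 had such a probe, PDGFRB had one on 2 of the 4 arrays, and COL1A2, DCN and LUM had none on any array. Of the leukocyte markers reported here, PTPRC had such a probe on all 4 arrays, CD3E and HLA-DRA on none, and CD68 and LYZ had no named probe. Of the endothelial markers, VWF, CDH5 and TEK had such a probe on all 4 arrays and PECAM1 and CLDN5 on none.

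Of 58162 probes used, 30543 had a signal well above background on the 2 simvastatin arrays or on the 2 L-778123 arrays and were tested, and 15836 named genes had such a probe. A gene with several probes was read at its brightest one. The level of a gene is its log2 signal minus that of the array's 75th percentile, and a gene was called when its difference reached 2-fold (1 on the log2 scale) at a Benjamini-Hochberg adjusted p under 0.05 in limma. On this basis 384 genes were called higher with simvastatin (2.42% of those tested) and 480 lower (3.03%). Over the 15836 genes the median log2 fold change was 0.0071, and 49.2% of the genes had a lower level with simvastatin.

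The replicate arrays lay close together. Across probes, the log2 signals of the simvastatin pair correlated at r = 0.997 and those of the L-778123 pair at r = 0.997, while arrays of different drugs correlated at 0.982 to 0.983. The median difference between the arrays of a pair was 0.0861 and 0.0855 on the log2 scale, and the median standard error of a log2 fold change was 0.0892. With errors this small, 36.5% of the probes passed the adjusted p alone, and 73.7% of the probes and 77.3% of the genes had arrays that did not overlap between the drugs, so the fold limit carried most of the selection.

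Most called genes changed by between 2-fold and 4-fold. The median fold of the genes called higher was 2.44 and that of the genes called lower 2.53. Of the genes called higher, 56 reached 4-fold, 10 reached 8-fold and 1 reached 16-fold. Of the genes called lower, 70 reached 4-fold, 16 reached 8-fold and 3 reached 16-fold. Among the called genes, 302 of the higher and 388 of the lower ones were well above background on all 4 arrays. For the others the dimmer group was well above background on 1 array (27 higher, 24 lower) or on none (55 higher, 68 lower), and these genes entered the test through the group in which they were bright. Where a called gene had several tested probes, every probe was called in the same direction for 34 of 69 higher and 77 of 115 lower genes, and no gene had probes called in both directions.

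Protein-coding genes made up 341 of the genes called higher and 411 of those called lower, out of 13781 tested. Of 1413 long non-coding RNA genes tested, 36 (2.55%) were called higher and 53 (3.75%) lower. Probes without a gene symbol leaned further toward simvastatin-low values. Of 9253 such probes, 156 (1.69%) were called higher and 473 (5.11%) lower, against 2.03% and 3.65% of all probes tested. Probes for catalogued long intergenic transcripts, whose identifiers begin with lnc, were called lower in 162 of 2965 cases (5.46%), and probes for curated RefSeq messenger RNAs in 567 of 18712 (3.03%).

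**Figure D1:**
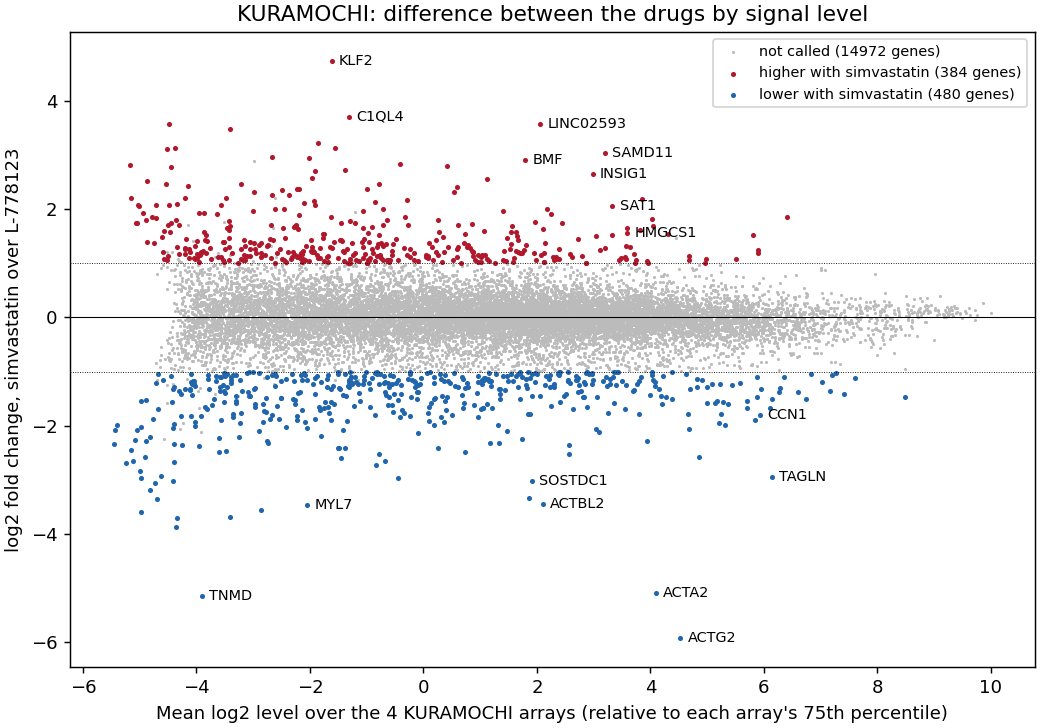
Each point is 1 of 15836 genes, plotted by its mean log2 level over the 4 KURAMOCHI arrays (horizontal axis, scaled by 75th percentile) and its log2 fold change of simvastatin over L-778123 (vertical axis). Red points are the 384 genes called higher and blue points the 480 called lower; dotted lines mark 2-fold. KLF2 stands highest, and ACTG2, TNMD and ACTA2 stand lowest, of which TNMD was not well above background on either simvastatin array.

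The gene with the largest rise was KLF2, a zinc-finger transcription factor that responds to statins in endothelial cells. Its level was 0.78 and 0.73 on the simvastatin arrays and -3.68 and -4.29 on the L-778123 arrays. The L-778123 signal was well above background on 1 of the 2 arrays, and the measured means differed 26.8-fold, higher with simvastatin (adjusted p = 8.99e-05). The 250 bases before its transcription start are shown because they hold a MEF2 box, the sequence bound by MEF2 factors. The box, searched on both strands, occurs in 0.572% of 35116 RefSeq promoter windows (GRCh38.p14, from 250 bases before to 50 after a start). The window lies at chr19:16324576-16324825 on the plus strand, with the match, in capitals, beginning 120 bases before the start.
KLF2: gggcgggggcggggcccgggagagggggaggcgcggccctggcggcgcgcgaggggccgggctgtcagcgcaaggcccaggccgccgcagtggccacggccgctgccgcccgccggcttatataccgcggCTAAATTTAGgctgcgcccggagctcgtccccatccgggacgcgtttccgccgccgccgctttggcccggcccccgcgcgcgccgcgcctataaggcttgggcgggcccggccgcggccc

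Other members of the KLF family had smaller differences. KLF13 was called higher, with a log2 fold change of 1.14 ± 0.07 (SE, adjusted p = 0.000195), while KLF6 had 3.53 and 3.56 against 3.33 and 3.25 and a log2 fold change of 0.25 ± 0.06, which is under 2-fold. Of 11 tested genes in a list of KLF family members and endothelial-type KLF targets, 2 were called higher and 0 lower. The median log2 fold change of the list was 0.62, and 2.42% of all genes tested were called higher. KLF4, KLF15 and THBD did not pass the filter on dim probes.

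Among genes bright on all 4 arrays, the 12 largest rises were a mixed group. C1QL4, a secreted protein of the C1q family, led them with 0.55 and 0.55 on the simvastatin arrays and -3.12 and -3.22 on the L-778123 arrays, a log2 fold change of 3.72 ± 0.08 (SE, adjusted p = 1.96e-05). The long non-coding RNA LINC02593 followed at 3.58 ± 0.07 (SE, adjusted p = 1.96e-05), with arrays at 3.83 and 3.86 against 0.25 and 0.29, and all 4 of its probes were called higher, from 1.85 to 3.58. LINC02593 lies next to SAMD11 in the RefSeq annotation, and SAMD11 was also among the 12, at 4.72 and 4.74 against 1.62 and 1.74. CHST1, a carbohydrate sulfotransferase, was at 3.23 ± 0.17 and GRIN2A, a subunit of the NMDA receptor, at 3.13 ± 0.19 on the log2 scale. The adhesion molecule DSCAML1 reached 2.96 ± 0.12. None of these genes had arrays that overlapped between the drugs, as was so for 77.3% of all genes tested.

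The remaining rises included regulators of death, hormone handling and lipid supply. BMF, a BH3-only protein that promotes apoptosis, had levels of 3.23 and 3.26 on the simvastatin arrays and 0.33 and 0.35 on the L-778123 arrays, and its log2 fold change was 2.91 ± 0.05 (SE, adjusted p = 1.69e-05). HSD11B2, which inactivates cortisol, rose by 2.80 on the log2 scale. ERP27, a chaperone-like protein of the endoplasmic reticulum, rose by 2.73. ANGPTL4, an inhibitor of lipoprotein lipase, had arrays at -0.53 and -0.56 against -3.32 and -3.20, yet its standard error was 0.57 because the shared spread includes OVSAHO arrays. Its adjusted p of 0.0143 rose to 0.0595 to 0.0657 when any 1 KURAMOCHI array was left out.

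Other genes were near background with L-778123. CD22, a lectin known from B cells, was well above background on neither L-778123 array and was at least 7.32-fold higher with simvastatin. CUX2, DEPP1 and CACNA2D3 were well above background on 1 of the 2 L-778123 arrays, so their folds rest in part on a dim value. CUX2, a homeobox factor, was 7.85-fold higher and DEPP1, a target of FOXO factors, 5.02-fold higher. CACNA2D3, a calcium channel subunit, was 5.55-fold higher at its brightest probe, whereas its second probe lay at -0.73 on the log2 scale.

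The 12 largest falls included actins of smooth muscle and proteins that act with them. ACTG2, the gamma actin of enteric smooth muscle, had levels of 1.62 and 1.51 on the simvastatin arrays and 7.58 and 7.41 on the L-778123 arrays. This is a log2 fold change of -5.93 ± 0.08 (SE, adjusted p = 1.06e-05), or 60.9-fold lower with simvastatin. ACTA2, the alpha actin of vascular smooth muscle, had 1.62 and 1.49 on the simvastatin arrays and 6.65 and 6.64 on the L-778123 arrays, a log2 fold change of -5.09 ± 0.09 (SE, adjusted p = 1.69e-05), or 34.1-fold. MYL7, a regulatory myosin light chain of the atrium, had -3.61 and -3.96 on the simvastatin arrays and -0.25 and -0.37 on the L-778123 arrays and was 11.1-fold lower (adjusted p = 0.000103). The arrays of the 2 drugs did not overlap for any of these genes, nor for 77.3% of all genes tested.

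TAGLN (transgelin, an actin-bundling protein) and LMOD1 (leiomodin 1, an actin nucleator of smooth muscle) were also among the 12 largest falls. TAGLN was the brightest of these genes, at 4.62 and 4.71 on the simvastatin arrays and 7.64 and 7.59 on the L-778123 arrays, and both of its probes fell by nearly the same amount, -2.95 and -2.93. LMOD1 was at -1.74 and -2.25 against 0.56 and 0.76, a log2 fold change of -2.66 ± 0.19. CARMN, the long non-coding RNA that neighbours MIR143 and MIR145, fell by -3.34 at its brightest probe, with 0.21 and 0.16 against 3.50 and 3.55. Its other probes were not called, and the median signal of its 3 probes on each array gave -0.48.

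Several actin-like genes share long stretches of sequence with ACTB and ACTG1, and their probes could bind each other's transcripts. ACTBL2 had a log2 fold change of -3.46 ± 0.07 and POTEF, a fusion of a POTE repeat with an actin, -2.59 ± 0.08. Their values are uncertain for this reason, and ACTG2 and ACTA2 also share most of their coding sequence. ACTB itself, the most abundant actin of the cell body, was at 7.80 and 7.70 on the simvastatin arrays and 9.23 and 9.19 on the L-778123 arrays, and its log2 fold change was -1.46 ± 0.08 (SE, adjusted p = 0.000155). ACTG1 stood at -1.68 ± 0.07. ACTG2 and ACTA2 lay further down than either of these cytoplasmic actins by more than 3 units on the log2 scale.

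The other large falls were of several kinds. SOSTDC1, an antagonist of BMP and WNT ligands, was at 0.47 and 0.33 against 3.46 and 3.38, a log2 fold change of -3.02 ± 0.19. SOST, the WNT antagonist sclerostin, fell by -2.61 with a standard error of 0.47, and its adjusted p was 0.126 by the methods' Tukey test. IL33, a cytokine released from damaged epithelium, was at -1.92 and -1.95 against 1.04 and 1.03, a log2 fold change of -2.97 ± 0.16. The non-coding gene LOC145474 fell by -2.73.

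LINC00052, TNMD and ARHGDIB were not well above background on either simvastatin array. LINC00052 was at least 10.2-fold lower, and both of its probes were called. TNMD, the tendon glycoprotein tenomodulin, was at least 8.61-fold lower, with L-778123 arrays at -1.46 and -1.20. ARHGDIB, an inhibitor that holds RHOA and related GTPases in the cytosol, was at least 7.37-fold lower. ERC2, also below background with simvastatin, was at least 4.23-fold lower, and AKAP6, well above background on 1 of the 2 simvastatin arrays, was 4.64-fold lower. With normexp background correction both lay under 2-fold (-0.86 and -0.86 on the log2 scale).

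**Figure D2:**
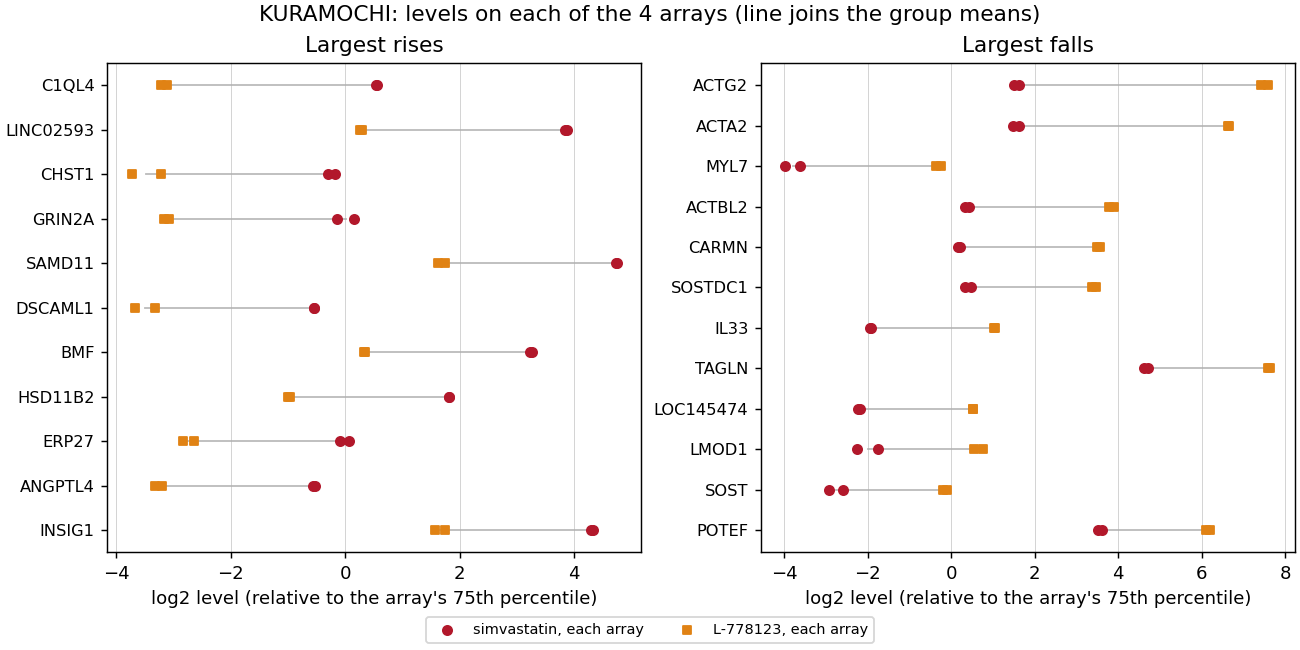
Points give the log2 level on each of the 4 KURAMOCHI arrays (horizontal axis, scaled by 75th percentile) for 11 of the 12 largest rises (left) and the 12 largest falls (right) among genes well above background on all 4; circles are simvastatin arrays, squares are L-778123 arrays, and a line joins the group means. The 2 arrays of a drug lie close together for each gene. The drugs do not overlap for any gene shown, nor for 77.3% of all genes tested.

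Genes of sterol synthesis were higher with simvastatin along most of the pathway. Of 10 enzymes from acetyl-CoA to squalene, 7 were called higher and 0 lower, and all 10 differences were positive, with a median log2 fold change of 1.05. Of 11 enzymes from squalene to cholesterol, 6 were called higher and 0 lower, with a median of 1.01. Over all genes tested, 2.42% were called higher and the median was 0.0071.

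HMGCS1, which makes HMG-CoA, was at 4.41 and 4.33 on the simvastatin arrays and 2.79 and 2.82 on the L-778123 arrays, a log2 fold change of 1.57 ± 0.06 (SE, adjusted p = 7.23e-05). This is 2.96-fold. Further along, IDI1, the isomerase that makes the allylic building block, was at 1.31 ± 0.10, MVD, the decarboxylase before it, at 1.19 ± 0.07 and FDFT1, the squalene synthase, at 1.04 ± 0.05. ACAT2, at the start of the pathway, stood at 1.01 ± 0.16, just past 2-fold.

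The mevalonate enzymes PMVK at 0.22, FDPS at 0.38 and GGPS1 at 0.40 were not called. FDPS makes farnesyl diphosphate and GGPS1 geranylgeranyl diphosphate, the lipid donors of prenylation. After squalene, DHCR7, which reduces the immediate precursor of cholesterol, was at 6.59 and 6.56 on the simvastatin arrays and 5.07 and 5.04 on the L-778123 arrays. Its log2 fold change was 1.52 ± 0.06 (SE, adjusted p = 7.6e-05), the largest of this group. MSMO1 (1.30 ± 0.12), CYP51A1 (1.29 ± 0.06) and SQLE (1.25 ± 0.08), all oxygen-dependent steps, lay between 2-fold and 3-fold. LSS, which closes the sterol ring, was at 1.01, and EBP, an isomerase, was lowest at 0.37.

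The regulators of the pathway were unequal. INSIG1, which retains the SREBP complex in the endoplasmic reticulum and is itself an SREBP target, was at 4.33 and 4.29 on the simvastatin arrays and 1.74 and 1.58 on the L-778123 arrays. Its log2 fold change of 2.66 ± 0.07 (SE, adjusted p = 4.95e-05) was the largest of the sterol genes. STARD4, a sterol carrier, was at 1.68 and 1.77 against 0.09 and -0.09, a log2 fold change of 1.73 ± 0.10 (SE, adjusted p = 0.00022). SREBF2, the gene of SREBP2, was at 0.63 ± 0.06, which passed the adjusted p but not 2-fold. Of the 12 genes listed for sterol sensing and uptake, 3 were called higher and 0 lower, against 2.42% of all genes called higher. The median of the 12 was 0.24.

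A promoter is shown for INSIG1 because it had the largest change of the sterol genes. The letters CCAAT on either strand, the box bound by NF-Y, which works beside SREBP2 on many sterol promoters, were found in 6 of 7 mevalonate and 8 of 9 post-squalene enzymes with a promoter entry, and in 34.6% of all 35116 windows. The 250 bases before INSIG1 lie at chr7:155297628-155297877 on the plus strand (GRCh38.p14), with the match, here on the opposite strand, in capitals 170 bases before the start.
INSIG1: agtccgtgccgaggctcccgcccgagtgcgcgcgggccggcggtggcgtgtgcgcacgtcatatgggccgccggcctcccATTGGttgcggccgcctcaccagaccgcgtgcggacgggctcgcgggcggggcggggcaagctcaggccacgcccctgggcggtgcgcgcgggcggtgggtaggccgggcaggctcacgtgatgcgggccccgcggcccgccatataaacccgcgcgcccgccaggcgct

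Neighbouring lipid pathways were counted in the same way, beside 5.46% of all genes called in either direction. SCD, which desaturates fatty acids and is a target of SREBP factors, was called higher at 2.39 and 2.37 against 0.91 and 0.99, a log2 fold change of 1.43 ± 0.06 (SE, adjusted p = 7.91e-05). It was the 1 call among 12 genes of fatty acid synthesis, whose median was 0.55. FASN stood at 0.91 ± 0.07, under 2-fold. Of 8 tested LXR targets and efflux genes, 0 were called, and the sterol exporter ABCA1 was at -0.76 ± 0.07. None of 11 prenyltransferase and CAAX processing genes was called, and their log2 fold changes stayed between -0.21 and 0.14. In the list of coenzyme Q, dolichol and selenoprotein genes, whose products draw on the same pathway, 1 of 23 was called, PDSS1, at -1.01 ± 0.08, and that value fell just under 2-fold with quantile normalization (-0.99).

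**Figure D3:**
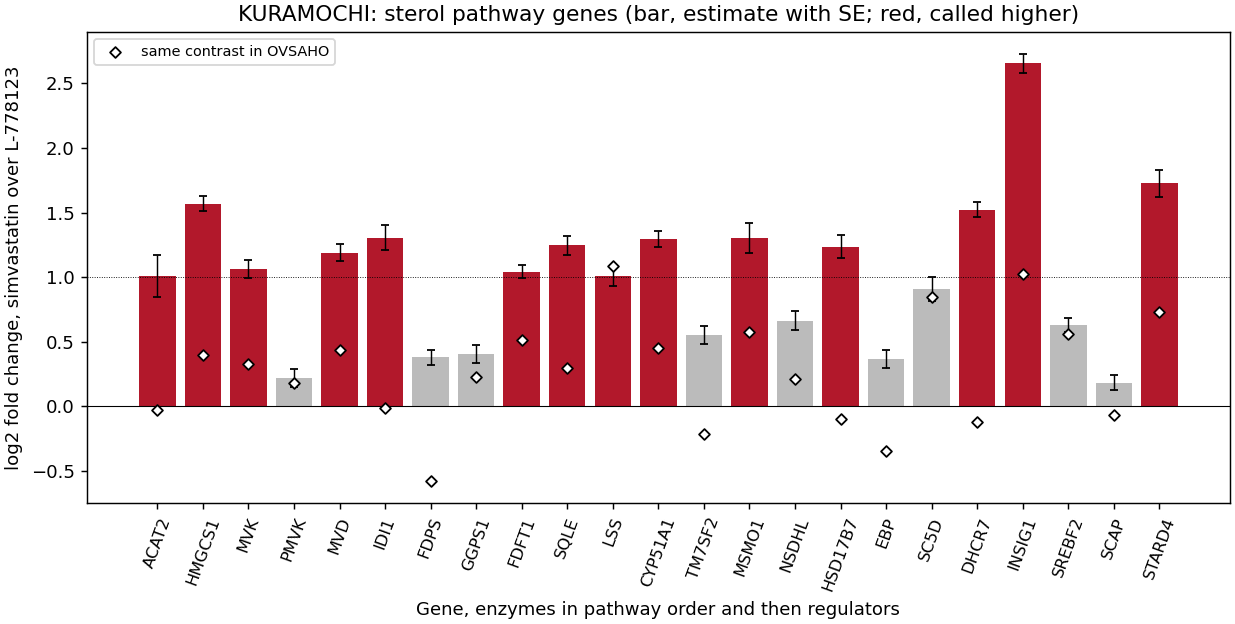
Bars give the log2 fold change of simvastatin over L-778123 in KURAMOCHI for genes of the sterol pathway (horizontal axis, enzymes in pathway order and then regulators), with error bars of 1 SE from limma; red bars are genes called higher and the dotted line marks 2-fold. Open diamonds give the same contrast in OVSAHO, where INSIG1 stood at 1.02 against 2.66 in KURAMOCHI.

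Of 29 tested SRF and MRTF targets of the contractile cytoskeleton, 18 were called lower and 0 higher, against 3.03% of all genes called lower. The median log2 fold change of the list was -1.32, and 28 of the 29 differences were negative. Beyond ACTG2, ACTA2, TAGLN and LMOD1, the smooth muscle protein CNN1 (calponin 1) was at -3.00 and -3.35 against -1.21 and -1.34, a log2 fold change of -1.90 ± 0.12 (SE, adjusted p = 0.000236). MYL9, the regulatory light chain of non-muscle and smooth muscle myosin, was at 4.89 and 4.91 against 6.80 and 6.79, and FLNA, which cross-links actin filaments, at 4.38 and 4.33 against 6.17 and 6.12. Their log2 fold changes were -1.89 ± 0.05 and -1.79 ± 0.07. The tropomyosins TPM1, TPM2 and TPM4 lay at -1.68, -1.36 and -1.32, the alpha-actinin ACTN1 at -1.43 and vinculin, VCL, at -1.32. SRF itself was at -0.78, under 2-fold, and MYLK, the myosin light chain kinase, at -0.16.

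Because ACTA2 and TAGLN also mark fibroblasts, the fibroblast markers are given beside these values. The summed level of the tested markers, COL1A1 and COL3A1, was 1.23 and 1.25 on the simvastatin arrays and 1.58 and 1.67 on the L-778123 arrays on the log2 scale. PDGFRB was well above background on 2 of the 4 arrays, and DCN, LUM and COL1A2 on none. The part of other cells in the contractile genes was not tested.

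The CArG box, the sequence that SRF binds, was searched on both strands in promoter windows of this list. It was found in 10 of 26 genes of the list with an entry (ACTG1, ACTG2, ACTN1, FHL1, FHL2, FLNA, MYLK, SRF, SVIL and TPM4) and in 1.29% of all 35116 windows. A match is a description of the letters and not a proven site. ACTA2 had an entry and no match. The windows of ACTG2, MYL7, which is not on the list, and FLNA were chosen for display from those that held a match, shown in capitals. They lie at chr2:73892758-73893007 on the plus strand, chr7:44141333-44141582 on the minus strand and chrX:154374635-154374884 on the minus strand (GRCh38.p14), 250 bases each, ending at the base before the start. ACTG2 has 2 matches, beginning 110 and 73 bases before the start, MYL7 has 1 at 61 bases and FLNA has 1 at 94 bases.
ACTG2: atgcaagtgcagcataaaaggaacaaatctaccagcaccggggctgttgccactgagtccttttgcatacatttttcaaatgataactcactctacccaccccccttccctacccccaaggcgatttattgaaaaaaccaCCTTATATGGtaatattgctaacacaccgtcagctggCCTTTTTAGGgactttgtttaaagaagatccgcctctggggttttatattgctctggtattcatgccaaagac
MYL7: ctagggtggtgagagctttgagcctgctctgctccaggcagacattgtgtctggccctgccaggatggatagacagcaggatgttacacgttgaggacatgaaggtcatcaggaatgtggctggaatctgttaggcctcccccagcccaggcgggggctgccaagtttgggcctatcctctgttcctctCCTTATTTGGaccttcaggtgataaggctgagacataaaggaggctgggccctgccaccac
FLNA: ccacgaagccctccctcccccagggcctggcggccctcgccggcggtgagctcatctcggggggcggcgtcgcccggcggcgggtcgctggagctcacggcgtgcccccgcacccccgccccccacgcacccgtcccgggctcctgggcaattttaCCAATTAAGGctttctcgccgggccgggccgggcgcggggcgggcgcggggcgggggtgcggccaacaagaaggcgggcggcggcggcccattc

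In all, 10 motifs were searched on both strands, in windows of 18 sterol genes, 29 contractile genes and KLF2, and the motifs and windows described here were chosen after the matches were seen. A gene counts when any of its windows holds a match, whereas the shares are of single windows, so the measures are unlike. Genes without a promoter entry were not searched. The sterol response element, to which SREBP factors bind, was searched as 1 exact sequence, whole, without its first base and as its core. This sequence was found in 0 of the 18 sterol genes at each length, against 0.0456%, 0.43% and 2.79% of all windows. The core was found in 2 of the 29 contractile genes, FHL1 and ZYX. CCAAT was found in 16 of the 18 sterol genes and also in 18 of the 29 contractile genes. GGAATG, the core letters bound by TEAD factors, was found in 14 of the 29 contractile and 4 of the 18 sterol genes, against 14% of all windows. TTTGAA, the letters of a cell cycle element, was found in 6 and 2 (15.2% of all windows), and the E2F site in 2 and 1 (3.31%). The CArG box was in 0 of the 18 sterol genes. The MEF2 box was in none of these sterol or contractile windows, and the exact letters of the match in KLF2 occur in 0.0655% of all windows. These counts describe letters in short windows and were not tested.

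The genes of the small GTPases were listed as well. Of 18 tested genes of RHOA-related GTPases and their regulators, 1 was called higher and 2 lower, with a median log2 fold change of -0.14. RHOU, an atypical member, was higher at 1.70 ± 0.07. RND3, an antagonist of RHOA signalling, was lower at 2.36 and 2.39 against 4.15 and 4.14, a log2 fold change of -1.76 ± 0.05 (SE, adjusted p = 4.95e-05), and ARHGDIB is given above. RHOB and RND1 were not tested. Of 17 RAS, RAP and RAL genes, 0 were called, and the median was -0.028. Of all genes tested, 5.46% were called in either direction.

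Keratins and tubulins, the other filament systems of the cell, were also lower in part. Of 13 tested keratins, 6 were called lower and 0 higher, against 3.03% of all genes called lower. The keratin median was -0.96. KRT80 was at -0.99 and -0.92 on the simvastatin arrays and 1.5 and 1.44 on the L-778123 arrays, a log2 fold change of -2.42 ± 0.06 (SE, adjusted p = 2.81e-05). KRT17 was at -2.75 and -2.69 against -0.33 and -0.29, a log2 fold change of -2.41 ± 0.14 (SE, adjusted p = 0.00018), and KRT23 at -1.94 ± 0.09. KRT14 had simvastatin arrays that lay far apart, -2.66 and -1.45 against -0.46 and -0.36 with L-778123, and its adjusted p of 0.0181 rose to 0.0682 and 0.0791 when 1 L-778123 array was left out. KRT8 had a log2 fold change of -1.32 ± 0.08 at its brightest probe. Of its 3 probes 2 were called lower, and the probes ran from -1.33 to -0.11. Read at the median signal of the 3 probes on each array, KRT8 was at -0.11. KRT7, KRT10, KRT15 and KRT81 lay between 0.09 and 0.25, and none of them was called.

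Of 12 tested alpha and beta tubulins, 4 were called lower and 1 higher, against 5.46% of all genes called in either direction. The tubulin median was -0.86. TUBB was at 4.45 and 4.48 against 5.73 and 5.68, and all 3 of its probes were called lower. TUBA4A (-1.22 ± 0.08), TUBA1A (-1.16 ± 0.07) and TUBA1B (-1.12 ± 0.08) gave similar values. TUBA8 was the exception at 1.03 ± 0.09, and was not called higher with normexp background correction. Tubulin and keratin genes have near-identical copies, so probes of a pair such as TUBA1A and TUBA1B may read each other's transcripts.

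YAP and TAZ, co-activators that respond to cell tension, share several targets with SRF. Of 23 tested YAP and TAZ targets, 6 were called lower and 0 higher, against 3.03% of all genes called lower. The median of the 23 was -0.52. CCN1 and CCN2, secreted matricellular proteins, were the most affected. CCN1 was at 5.09 and 4.95 on the simvastatin arrays and 6.85 and 6.82 on the L-778123 arrays, a log2 fold change of -1.81 ± 0.07 (SE, adjusted p = 6.98e-05), and CCN2 at 3.81 and 3.71 against 5.59 and 5.52, a log2 fold change of -1.79 ± 0.21 (SE, adjusted p = 0.00187). ANKRD1, a nuclear ankyrin protein, was at -1.57 ± 0.20 and IGFBP3, which binds insulin-like growth factors, at -1.52 ± 0.15. By the methods' Tukey test the adjusted p of ANKRD1 was 0.0601. F3, the tissue factor that starts coagulation, was at -0.91 ± 0.09, under 2-fold, and AXL, a receptor kinase, was positive at 0.73.

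Matrix and adhesion genes were also counted, beside 5.46% of all genes called in either direction. TNC, the matrix glycoprotein tenascin C, was at 2.09 and 2.07 against 3.58 and 3.52, a log2 fold change of -1.47 ± 0.08 (SE, adjusted p = 0.000142), and COL4A1, of the basement membrane, at -1.19 ± 0.06. These were the 2 calls among 18 collagens and matrix genes, whose median was -0.63. Among 21 integrin and laminin subunits, ITGA1 (-1.36 ± 0.14) and ITGB3 (at least 2.38-fold) were lower and ITGA4 (at least 1.96-fold) was higher. With normexp background correction ITGA1, ITGB3 and ITGA4 lay under 2-fold, at -0.53, -0.36 and 0.44 on the log2 scale. PLAT, the tissue plasminogen activator, was higher at 3.01 and 3.02 against 1.74 and 1.76, a log2 fold change of 1.26 ± 0.07 (SE, adjusted p = 0.000171), and PLAU, the urokinase, was at -0.57.

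Immediate early genes moved apart from each other. EGR1, a zinc-finger factor induced by growth signals, was at 4.26 and 4.19 against 2.91 and 2.91, a log2 fold change of 1.32 ± 0.07 (SE, adjusted p = 0.000131). FOS, a partner in the AP-1 dimer, was at 0.74 and 0.87 against -0.39 and -0.62, a log2 fold change of 1.30 ± 0.09 (SE, adjusted p = 0.00038), while JUN was at -0.28 ± 0.06, under 2-fold. EGR2 was at least 2.13-fold higher from levels near background, and its adjusted p of 0.0191 rose to 0.0903 and 0.0822 without simvastatin array 2 or L-778123 array 1. Of 17 tested genes of this class 3 (17.6%) were called, against 5.46% of all genes in either direction, and the median was -0.015. Among 15 ERK feedback genes the 1 call (6.67%, near the share of all genes) was DUSP5, a nuclear phosphatase of ERK. DUSP5 was lower at -0.66 and -0.67 against 0.54 and 0.58, a log2 fold change of -1.22 ± 0.05 (SE, adjusted p = 9.52e-05). DUSP6, the cytosolic counterpart, was at -0.18 ± 0.07 and SPRY4 at 0.39 ± 0.10.

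Genes of signals to neighbouring cells were called at shares around that of all genes, which was 5.46% in either direction. CCL2, which attracts monocytes, was at 0.91 and 1.00 on the simvastatin arrays and 2.76 and 2.71 on the L-778123 arrays, a log2 fold change of -1.78 ± 0.06 (SE, adjusted p = 5.98e-05). CXCL2, which attracts neutrophils, was higher at 1.1 ± 0.12, but without L-778123 array 1 its value was 0.97. These were the 2 calls among 20 chemokine and NF-kB genes (10%). Of 32 interferon response and antigen presentation genes, 1 (3.12%) was called lower, CXCL10, with levels at the floor of the array and an adjusted p of 0.0268 that rose to 0.0912 and 0.102 without an L-778123 array. With simvastatin array 2 left out, CXCL10 was at -0.90 on the log2 scale. The median of that list was 0.28, and 27 of 32 differences were positive. PMEPA1, an inhibitor of TGF-beta signalling, was the 1 call among 17 TGF-beta and BMP genes (5.88%), at 1.75 ± 0.29 at its brightest probe. Its second probe was at 0.88 and was not called, and the adjusted p of the brightest probe was 0.106 by the methods' Tukey test.

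Genes of DNA replication were lower with simvastatin than with L-778123. All 37 tested genes of DNA replication and nucleotide supply had negative differences, and the median log2 fold change was -0.94. Among the 37, 16 were called lower and 0 higher, against 3.03% of all genes called lower. RRM2, the inducible subunit of ribonucleotide reductase, was at -1.20 and -1.64 on the simvastatin arrays and 0.40 and 0.27 on the L-778123 arrays, a log2 fold change of -1.76 ± 0.16 (SE, adjusted p = 0.000759). MCM10, which activates the replicative helicase, was at -1.28 and -1.19 against 0.46 and 0.49 and ORC1, of the origin recognition complex, at -2.72 and -2.64 against -0.90 and -1.12. Their log2 fold changes were -1.71 ± 0.08 and -1.66 ± 0.09, and that of ORC1 was -0.88 with normexp background correction. TYMS, the source of thymidylate, was at -1.5 ± 0.07. PCNA, the sliding clamp, was at -0.70 ± 0.07 and DUT, which keeps uracil out of DNA, at -0.15, both under 2-fold.

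Mitotic genes were alike in sign. All 42 tested genes of mitosis and the kinetochore had negative differences, and the median was -0.87. Among the 42, 11 were called lower, against 3.03% of all genes. ANLN, an actin-binding scaffold of the cleavage furrow, was at 0.24 and 0.21 against 1.90 and 1.89, a log2 fold change of -1.67 ± 0.05 (SE, adjusted p = 4.95e-05). MYBL2, a transcription factor of the G2 programme, was at -1.67 ± 0.07 and SPC25, of the NDC80 kinetochore complex, at -1.64 ± 0.05. CENPI was at -1.51 ± 0.06, and CDK1, the kinase that starts mitosis, at -1.17 ± 0.06, with a second probe at -0.78. With normexp background correction 7 of the 42 were called. PLK1 was not tested.

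Homologous recombination genes shared this pattern. Of 26 tested genes of homologous recombination and Fanconi anemia, 9 were called lower and 0 higher, against 3.03% of all genes called lower. The median of the 26 was -0.82, and with normexp background correction 5 of them were called. BRIP1, a helicase that works with BRCA1, was at -3.67 and -3.19 against -1.43 and -1.37, a log2 fold change of -2.03 ± 0.23 (SE, adjusted p = 0.00158). EXO1, which resects DNA ends, was at -1.55 ± 0.06. BRCA2, a mediator of homologous recombination, was at -1.23 ± 0.11 and RAD51AP1, which acts in the same repair, at -1.22 ± 0.09. Those values were -0.73 and -0.98 with normexp background correction. PALB2 at -0.05 and FANCF at 0.19 were not called.

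The regulators of G1 went in both directions. E2F7, a repressor of the E2F class, was at -0.79 and -0.80 against 0.97 and 0.96, a log2 fold change of -1.76 ± 0.06 (SE, adjusted p = 5.48e-05). CCNE2, a cyclin of the G1 to S transition, was at -1.71 ± 0.10 and E2F1 at -1.32 ± 0.06. CDKN1A, the inhibitor p21, was higher at -2.41 and -2.43 against -3.74 and -3.63, a log2 fold change of 1.26 ± 0.13 (SE, adjusted p = 0.00106), and CDKN1C, the inhibitor p57, at 1.07 ± 0.09. The levels of CDKN1A were dim, and with normexp background correction its log2 fold change was 0.59. CCND1 was at -0.56 ± 0.07 and MYC at 0.49 ± 0.06, both under 2-fold. Of 21 tested genes of this class, 2 were called higher and 4 lower, against 2.42% and 3.03% of all genes.

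Replication-dependent histone genes were split. Of 32 tested, 4 were called lower and 0 higher, against 3.03% of all genes called lower, and 10 of the differences were positive. H1-5, a linker histone, was at -1.76 ± 0.12, H2AC16 at -1.32 ± 0.15, H2AC11 at -1.16 ± 0.08 and H3C2 at -1.14 ± 0.08. Histone genes of a class are near-identical, so a probe may read several of them, and H2AC16 stood at -0.79 with normexp background correction.

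Genes that promote cell death were higher one by one rather than as a class. Of 18 BCL2 family genes 4 were called higher and 0 lower, all 4 of them BH3-only members, while the median of the family was 0.10. Beside BMF these were BBC3 (PUMA), at 4.24 and 4.35 against 3.12 and 3.13 with a log2 fold change of 1.17 ± 0.07 (SE, adjusted p = 0.000204), BCL2L11 (BIM) at 1.11 ± 0.05 and HRK at 1.01 ± 0.07. BCL2L11 stood at 0.87 when read at the median signal of its 3 probes on each array. HRK fell just under 2-fold (0.96) without L-778123 array 1. Of 22 caspases and death receptor genes, 1 (4.55%) was called, TNFSF10 (TRAIL), the ligand of death receptors. That share is near the 5.46% of all genes called in either direction. TNFSF10 was at 1.81 and 1.79 on the simvastatin arrays and -0.57 and -0.66 on the L-778123 arrays, a log2 fold change of 2.41 ± 0.06 (SE, adjusted p = 3.71e-05), and its 2 probes gave 2.41 and 2.71.

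A list that joins FOXO targets with genes that restrain PI3K gave 5 calls higher and 0 lower among 20 genes. Its median log2 fold change was 0.44. PDK4, which shuts pyruvate out of the citric acid cycle, was at 2.39 and 2.42 on the simvastatin arrays and -0.18 and -0.13 on the L-778123 arrays, a log2 fold change of 2.56 ± 0.06 (SE, adjusted p = 2.45e-05). PIK3IP1, an inhibitor of PI3K, was at -0.32 and -0.15 against -1.86 and -1.92, a log2 fold change of 1.66 ± 0.08 (SE, adjusted p = 0.000142). IRS2, an adaptor of the insulin receptor, was at 1.16 ± 0.08 and the FOXO4 gene at 1.04 ± 0.07. With normexp background correction, or without simvastatin array 1, 3 of the 20 were called. Of 21 p53 targets 2 (9.52%) were called, CDKN1A and BBC3, against 5.46% of all genes in either direction, and MDM2 was at 0.09 ± 0.09.

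Stress programmes were set against the 5.46% of all genes called in either direction. Of 24 genes of the integrated stress response, 1 (4.17%) was called, NUPR1, a stress-induced chromatin protein, at 4.34 and 4.48 against 2.73 and 2.80 with a log2 fold change of 1.65 ± 0.07 (SE, adjusted p = 0.000102). In the same list 21 of 24 differences were positive, and ATF3 at 0.94 ± 0.05, TRIB3 at 0.89 ± 0.08 and DDIT3 at 0.81 ± 0.06 lay between 1.5-fold and 2-fold. The 4 probes of ATF3 ran from 0.10 to 1.03, and 1 of them was called higher. With quantile normalization or the authors' value table, 2 of the 24 genes were called. HMOX1, the heme oxygenase, was at 1.09 ± 0.07 and was the 1 call among 18 NRF2 targets (5.56%), so neither share stood apart from that of all genes. No gene was called among 20 genes of the unfolded protein response, where HSPA5 was at 0.36 ± 0.06, among 15 of the heat shock response or among 30 of autophagy and lysosome. SAT1, which acetylates spermidine and spermine, was at 4.31 and 4.41 on the simvastatin arrays and 2.31 and 2.28 on the L-778123 arrays, a log2 fold change of 2.07 ± 0.07 (SE, adjusted p = 5.42e-05), and it was the 1 call among 14 genes of polyamine metabolism.

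Genes of energy supply and growth changed by small amounts. The counts stand beside 5.46% of all genes called in either direction. None of 31 subunits of oxidative phosphorylation was called, yet 29 of the 31 differences were negative and the median was -0.25. None of 21 hypoxia and glycolysis genes was called, and VEGFA was at 0.75 ± 0.06. None of 30 genes of nucleolar ribosome biogenesis was called, with a median of -0.11. Serous lineage genes gave 2 calls. Of the 20 tested, CLDN4, a tight junction protein, was called higher at 6.51 and 6.48 against 5.27 and 5.32 and KRT8 lower, PAX8 stood at 0.65 ± 0.07, WT1 at -0.25 ± 0.05 and MUC16 at -0.99 ± 0.16. CLDN4 was also the 1 call among 21 epithelial and mesenchymal state genes (4.76%).

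**Figure D4:**
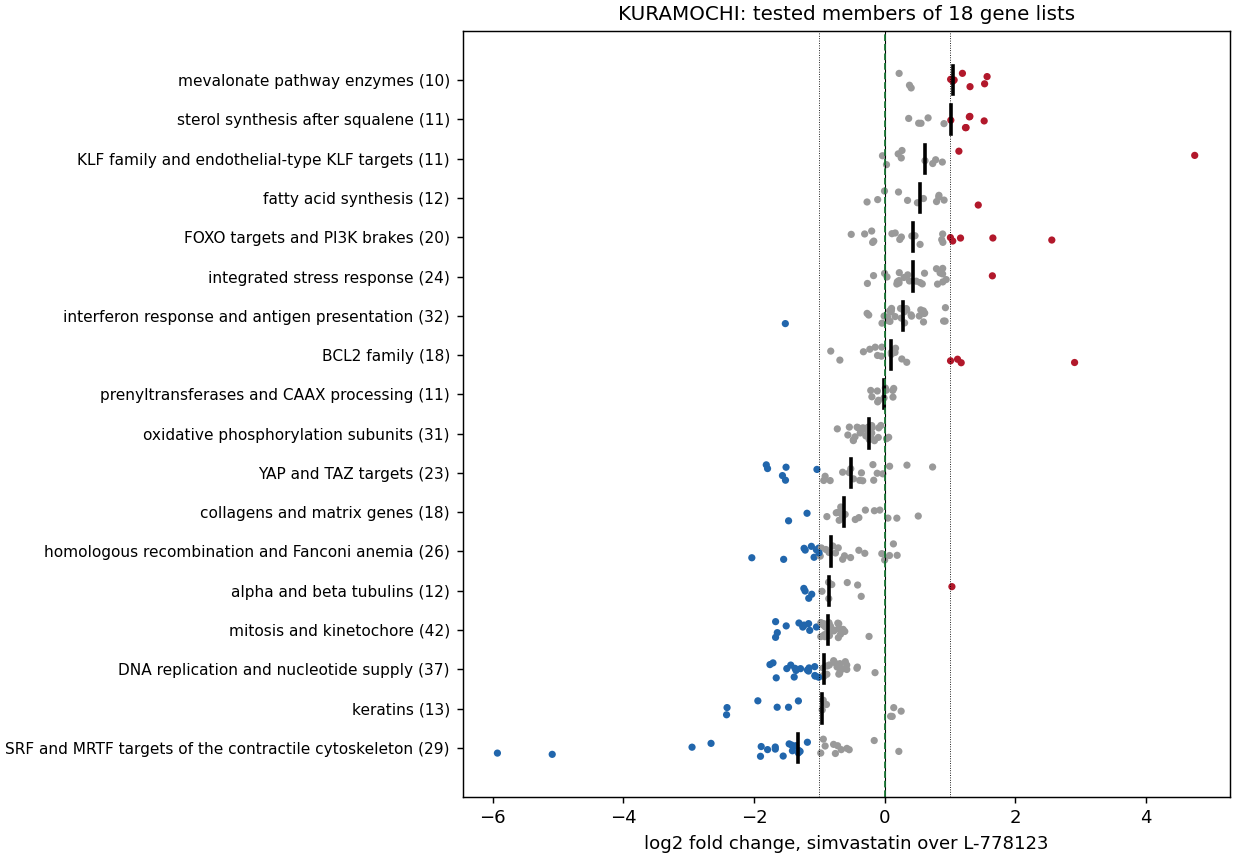
Points are the tested members of 18 gene lists (rows, with the number of members in parentheses), plotted by the log2 fold change of simvastatin over L-778123 in KURAMOCHI; red members were called higher, blue members lower and grey members neither, and the vertical offset within a row has no meaning. Black bars mark each list's median, from 1.05 for mevalonate pathway enzymes to -1.32 for SRF and MRTF targets; the dashed green line marks the median of all genes, 0.0071, and dotted lines mark 2-fold.

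The KURAMOCHI differences were set beside the same contrast in OVSAHO, which used other arrays. Of the 384 genes called higher in KURAMOCHI, 165 were called higher and 11 lower in OVSAHO. Of the 480 called lower, 250 were called lower and 15 higher there. In OVSAHO 10.8% of the same 15836 genes were called in either direction, against 5.46% in KURAMOCHI. The contrast differed between the lines (adjusted p under 0.05 for the difference) for 30% of all genes tested, and for 222 of the genes called higher and 298 of those called lower. Among these, the KURAMOCHI difference was the larger for 162 higher and 197 lower genes and the smaller for 60 and 101. The genes were chosen by their KURAMOCHI contrast alone, which favours a larger difference there, so these counts do not compare the strength of the lines.

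The genes that lay furthest below OVSAHO included the contractile ones. ACTA2 was at -2.93 and -3.05 on the simvastatin and -3.12 and -3.30 on the L-778123 arrays of OVSAHO, so its level there was low with both drugs, and the difference of the contrasts was -5.31 ± 0.12 (SE, adjusted p = 5.75e-05). MYL7 was low in OVSAHO too, at -3.53 and -3.70 and -4.04 and -3.74, and its contrasts differed by -3.75 ± 0.22 (SE, adjusted p = 0.000368). LMOD1 moved in opposite directions, -2.66 in KURAMOCHI and 2.58 in OVSAHO, a difference of -5.24 ± 0.28 (SE, adjusted p = 0.000265).

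ATP6V0A4, a subunit of the proton pump of acid-secreting epithelia, showed the largest such reversal. In KURAMOCHI it was at -2.42 and -2.51 with simvastatin against -0.40 and -0.35 with L-778123, and in OVSAHO at 1.1 and 1.15 against -2.44 and -2.39. The contrasts were -2.09 and 3.54, and they differed by -5.63 ± 0.09 (SE, adjusted p = 2.63e-05). KANK4, a scaffold of focal adhesions, had contrasts of -1.80 and 1.92, with a wide standard error of 0.29 on each. By the methods' Tukey test its adjusted p in KURAMOCHI was 0.099.

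In the other direction DACT2, an inhibitor of WNT signalling, was higher in KURAMOCHI, at 0.78 and 0.82 against -1.37 and -1.36, and lower in OVSAHO, at -2.74 and -2.68 against -1.53 and -1.59. The difference of its contrasts was 3.32 ± 0.08 (SE, adjusted p = 5.75e-05). ETV1, a factor of the ETS family, had contrasts of 1.21 and -1.73. With normexp background correction its KURAMOCHI value was 0.78. ADAMTSL2 (2.47 and -0.42), a secreted matrix protein, and MFAP4 (1.53 and -0.93), of the microfibrils, also had contrasts of opposite sign, as did LINC02611 (1.68 and -0.98).

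The lists were counted in the same way. Of the 29 SRF and MRTF targets, 24 had contrasts that differed between the lines, against 30% of all genes, and their median was -1.32 in KURAMOCHI and -0.24 in OVSAHO. Of the 21 sterol enzymes, 17 differed (8 of 10 and 9 of 11), with medians of 1.05 and 1.01 in KURAMOCHI and 0.28 and 0.21 in OVSAHO. For DNA replication the order was the other way, with -0.94 in KURAMOCHI and -1.30 in OVSAHO and 27 of 37 genes differing. Keratins had medians of -0.96 and 0.05 and 10 of 13 genes that differed. KLF6 moved further in OVSAHO, where it was at 6.09 and 6.02 against 2.74 and 2.79, and its contrasts of 0.25 in KURAMOCHI and 3.29 in OVSAHO differed by -3.03 ± 0.08 (SE, adjusted p = 7.22e-05). BMF was near equal in both, at 2.91 and 2.95, with a difference of -0.05 ± 0.07 (SE, adjusted p = 0.681). BBC3 was called in both, and its contrast of 1.17 in KURAMOCHI was lower than that of 3.72 in OVSAHO, with a difference of -2.55 ± 0.10 (SE, adjusted p = 0.000128).

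**Figure D5:**
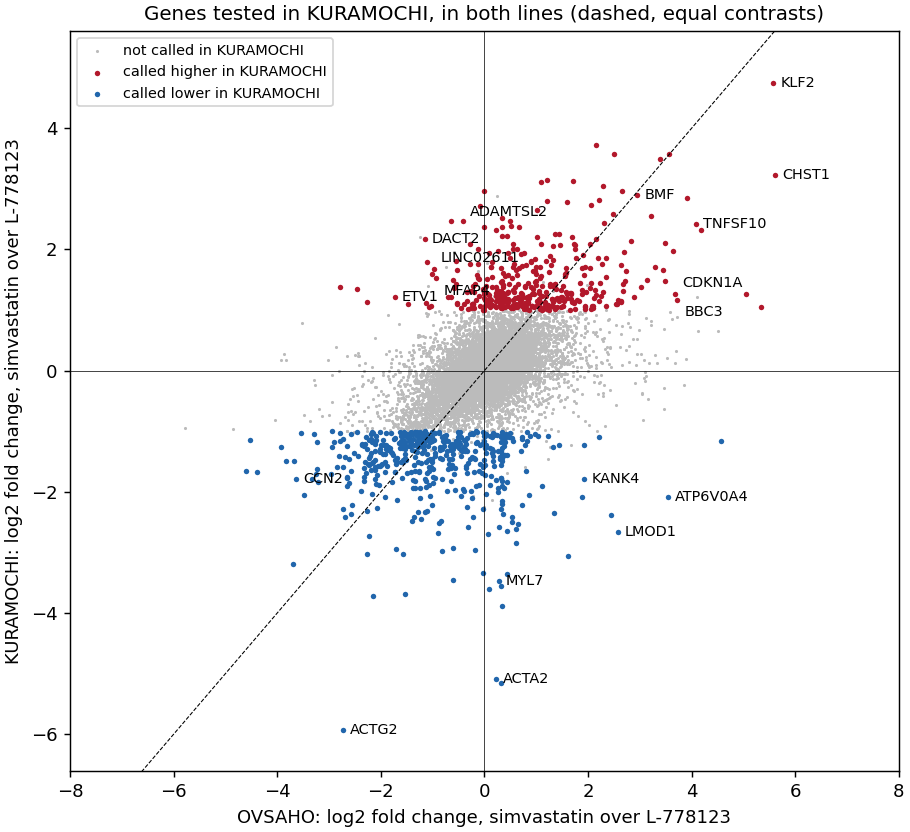
Each point is 1 gene tested in KURAMOCHI, with its log2 fold change of simvastatin over L-778123 in OVSAHO (horizontal axis) and in KURAMOCHI (vertical axis); the dashed line marks equal contrasts. Red and blue points are called in KURAMOCHI, and ATP6V0A4, LMOD1 and KANK4 lie in the quadrant where the lines have opposite signs, while ACTA2 and MYL7 lie near 0 in OVSAHO.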

How the data were processed

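Labelled RNA of 2 cell lines, KURAMOCHI and OVSAHO, each exposed to simvastatin or L-778123, was measured on 8 arrays, 2 per group, and samples were grouped by their labels. The authors extracted the images with Agilent Feature Extraction 11.5.1.1 and deposited, per the file headers, the processed intensity of each spot, which the software had corrected for background, with flags for spots well above background, saturated or outlying. The deposited value table of the series, an intensity on a linear scale with a 75th percentile of 384 on every array, was used only as an alternative.

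Control spots and outlier spots (58 to 80 per KURAMOCHI array) were left out, no spot was saturated, and spots of a probe were averaged. From each log2 processed intensity the array's 75th percentile was subtracted, which lay at 361 to 403 on the KURAMOCHI arrays, where 51.8 to 54.8% of probes were well above background. Of 58201 probes, 39 had no spot left. Symbols came from the accessions in the files through a RefSeq table, which named 24768 of 50096 identifiers. Its assembly is later than that of the array design, and only names, neighbours and the promoter windows, with their own build, were taken from it. Promoter windows were searched for 10 motifs, and those described were chosen after the search.

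All 8 arrays were fitted in limma 3.58.1 (R 4.3.3; lmFit and eBayes) with 1 mean for each of 4 groups, a shared spread and 4 residual degrees of freedom, and p-values were adjusted by the Benjamini-Hochberg method over the 30543 tested probes. The contrasts were simvastatin minus L-778123 in KURAMOCHI and that contrast minus the one in OVSAHO. Where neither array of a group showed a probe well above background, its fold is a bound, with the dim side taken per array as the higher of its own signal and the dimmest probe that passed that flag, and written as "at least". With 1 such array the measured fold is given. The test was checked on simulated data.

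The genes named are the 12 largest rises and falls among genes bright on all 4 arrays, the 5 largest each way among genes not well above background on at least 1 array of a group, in each of the gene lists the 4 called members with the largest change and preset key genes, and the 5 genes on each side that differed most from OVSAHO. Members named beyond this rule were chosen after their values were seen. Some genes that the rule or the lists include are not reported here by name, though list counts include them. The lists and their members were chosen with earlier results of these data known. Alternatives covered the filter, background correction, normalization, test, fold, replicate block and each array left out. A further alternative, the median over probes, read each gene at the median signal of its tested probes on each array. Python 3.11.15 with matplotlib 3.10.9 drew the figures.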

Additional observations from a re-analysis of the deposited data

Results flagged for a closer look

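The difference between simvastatin and L-778123 was tested for a difference between KURAMOCHI and OVSAHO at every probe tested in KURAMOCHI, and 7829 of 30543 probes (25.6%) passed an adjusted p under 0.05 for that difference in limma. Counted without OVSAHO or KURAMOCHI arrays in turn, 5148 to 6602 probes passed. Among called genes well above background on all 8 arrays, the KURAMOCHI log2 fold change lay furthest below that of OVSAHO for ATP6V0A4 (difference -5.63), ACTA2 (-5.31), LMOD1 (-5.24), MYL7 (-3.75) and KANK4 (-3.72). It lay furthest above for DACT2 (3.32), ETV1 (2.94), ADAMTSL2 (2.89), LINC02611 (2.66) and MFAP4 (2.45). Each line lay in its own row of the slide, so the row and the line cannot be told apart. With 2 arrays in a group, no array could be tested as standing apart from the others of its group.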

How the results depend on the processing

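Against 620 probes called higher and 1114 lower in KURAMOCHI, normexp background correction gave 203 and 455, the methods' Tukey test gave 374 and 729, a fold of at least 1.5 gave 1740 and 2625, and a fold of at least 4 gave 94 and 177. Leaving out 1 array at a time gave 577 to 642 higher and 1009 to 1118 lower. The 7829 probes whose contrast differed between the lines became 3932 with no filter on dim probes, 4756 with the replicate block and 5148 to 6602 with 1 array left out. The other alternatives (filters, normalizations, the authors' value table, KURAMOCHI alone, a prior spread that follows the signal) stayed within 1.5 times of each count. The labels give same-numbered samples of the 2 drugs no other link. The deviations of same-numbered KURAMOCHI arrays correlated at 0.012, which cannot tell whether they shared a culture. With the replicate block 600 probes were called higher and 1082 lower.

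Of 2286 values for 115 called genes named by the rule, 2222 kept their direction and their side of the threshold, 64 (in 30 genes) fell short of the threshold and 0 changed direction. For 23 named genes that were not called, 454 of 460 values kept their direction and their side of the threshold. Of the others, 5 passed the threshold and 1 changed direction, that of MDM2, to -0.22 as the median over its probes. The median of RAS, RAP and RAL genes turned sign, to 0.057 with quantile normalization and 0.058 with the authors' value table. That of the BCL2 family turned to -0.032 as the median over probes. These medians lay further from 0 than the spread between replicates (1 SD). Other list medians, within that spread of 0, also took both signs over the alternatives: AP-1 and immediate early genes (-0.064 to 0.058), prenyltransferases (-0.099 to 0.017) and unfolded protein response (-0.068 to 0.020). The median of the 2 tested fibroblast markers ran from -0.89 without simvastatin array 2 to 0.040 without simvastatin array 1. The cause was not tested. Values near background have the least precision, and 2 arrays per group limit every error given here.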
